A study of Mus musculus with 4 samples.

Results

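The genes described here are the ligands and receptors of axon guidance: the semaphorins with their plexin and neuropilin receptors, the ephrins with their Eph receptors, the netrins with Dcc and the Unc5 receptors, and the Slits with their Robo receptors. A gene was a member by its symbol, from the families Sema3 to Sema7, Plxn, Nrp, Efn, Eph, Ntn, Unc5, Slit and Robo together with Dcc. Of 20211 genes listed in all 4 libraries, 66 were members: 19 semaphorins, 9 plexins, 2 neuropilins, 8 ephrins, 13 Eph receptors, 4 netrins, Dcc, 4 Unc5 receptors, 3 Slits and 3 Robo receptors. Sema3g also matched by name but was not listed in every library and was left out.

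The study sampled hippocampal nuclei of mice of 4 genotypes and made 1 single-nucleus RNA library from each: wild type, a global knockout of monoacylglycerol lipase (MAGL, gene Mgll, the enzyme that degrades the endocannabinoid 2-arachidonoylglycerol), a knockout restricted to astrocytes and a knockout restricted to neurons. The labels name the genotypes, the hippocampus as the tissue and brain cells as the cell type. The sources used here give no age, sex, number of animals per library or Cre driver for the restricted knockouts. The series title asks about too much endocannabinoid in neurons and cognition. Each value below is printed in the order wild type, total knockout, astrocyte knockout and neuron knockout where 4 values stand together.

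After filtering, the libraries held 8941, 23705, 10015 and 8646 nuclei with median depths of 8787, 4979, 7268 and 8438.5 UMIs (counted RNA molecules), and 44 clusters were formed without the member genes. Names such as dentate granule or CA1 mean that a cluster resembled that type on its marker genes, and 11114 nuclei stayed unnamed. The total-knockout library stood apart. It held 31243 barcodes before filtering against 8945 to 10731 in the others, 23.3% of its filtered barcodes were called doublets, and 0.0127% of its nuclei carried the female pattern (Xist and no Y-linked UMI) against 41.0% to 47.1% elsewhere. It also held most of the nuclei with markers of other brain regions: medium spiny neurons, which belong to the striatum, numbered 31, 745, 0 and 1, thalamic excitatory neurons 1, 143, 21 and 0, and an unnamed cluster closest to medium spiny neurons 33, 809, 58 and 12. The part of this difference in tissue in the ratios to wild type was not tested. Pairs of libraries shared 108 to 466 cell barcodes. The targeted gene Mgll lay at 120.3, 102, 139.6 and 129.6 CPM (UMIs of a gene per 1000000 UMIs of the class) in dentate granule nuclei, 62.98, 44.1, 69.4 and 69.8 in CA1, 132, 104, 149 and 129 in CA2/CA3 and 117, 101, 123 and 126 in subicular or cortical nuclei, and 88.1, 88.3, 99.7 and 97.98 and 104, 115, 118 and 93.7 in 2 classes of interneurons. The library labelled neuron knockout was thus above wild type in 4 of these 6 neuronal classes and below it in CA2/CA3 and the last class of interneurons. In astrocytes, of which the libraries held 111, 111, 30 and 52 nuclei, Mgll lay at 375, 276, 266 and 463 CPM, lower in total and astrocyte knockout than in the other 2. The deleted part of Mgll is not given, so these counts do not check the labels, and each library is named below as its label names it.

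Guidance cues steer growing axons by attraction or repulsion, and many stay on in the adult hippocampus, where they act on synapses, dendritic spines and the layering of inputs. Secreted class 3 semaphorins bind neuropilins, which signal through A-type plexins, while Sema3e can bind Plxnd1 directly. Netrin-1 attracts through Dcc and repels where an Unc5 receptor is present, Slits repel through Robo receptors, and ephrins bind Eph receptor kinases on touching cells and can signal both ways.

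Because several members differed between the 3 principal neuron types of the hippocampus, the 250 bases before the start of transcription are shown for 5 members, chosen after their values were seen. Ephb1 (chr9:102354694-102354943, minus strand) was low in CA1, Sema3e (chr5:14025026-14025275, plus strand) and Unc5b (chr10:60831582-60831831, minus strand) were low in granule nuclei, Sema3d (chr5:12382916-12383165, plus strand) was highest in CA2/CA3, and Plxnd1 (chr6:115995006-115995255, minus strand) was lowest in CA2/CA3 of the 3. Sequences are RefSeq promoters of build GRCm38.p6, which held 56 of the 66 members, and run 5′ to 3′ on the strand of the gene. The window of Sema3d ends before the GENCODE start of the gene given below (chr5:12383385), so it does not adjoin that start. Capitals mark the GC box, GGGCGG on either strand.
Ephb1: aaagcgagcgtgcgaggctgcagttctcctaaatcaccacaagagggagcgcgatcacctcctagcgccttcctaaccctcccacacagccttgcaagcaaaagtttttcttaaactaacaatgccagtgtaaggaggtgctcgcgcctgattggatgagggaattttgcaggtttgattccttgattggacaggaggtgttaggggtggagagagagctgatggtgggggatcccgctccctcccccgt
Sema3e: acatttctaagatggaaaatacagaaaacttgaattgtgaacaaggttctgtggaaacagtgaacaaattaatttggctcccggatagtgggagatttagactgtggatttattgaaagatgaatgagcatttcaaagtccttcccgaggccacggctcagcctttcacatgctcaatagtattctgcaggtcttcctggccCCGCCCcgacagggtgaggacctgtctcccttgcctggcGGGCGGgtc
Unc5b: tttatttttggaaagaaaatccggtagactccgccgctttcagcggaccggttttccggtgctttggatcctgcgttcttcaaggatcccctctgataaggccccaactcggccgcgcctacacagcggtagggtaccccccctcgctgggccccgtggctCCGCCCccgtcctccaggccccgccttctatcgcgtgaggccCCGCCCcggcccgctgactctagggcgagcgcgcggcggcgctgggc
Sema3d: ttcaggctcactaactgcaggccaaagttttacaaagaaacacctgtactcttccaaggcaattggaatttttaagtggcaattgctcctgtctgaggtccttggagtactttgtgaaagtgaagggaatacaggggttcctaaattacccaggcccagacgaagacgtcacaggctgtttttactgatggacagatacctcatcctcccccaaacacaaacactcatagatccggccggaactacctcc
Plxnd1: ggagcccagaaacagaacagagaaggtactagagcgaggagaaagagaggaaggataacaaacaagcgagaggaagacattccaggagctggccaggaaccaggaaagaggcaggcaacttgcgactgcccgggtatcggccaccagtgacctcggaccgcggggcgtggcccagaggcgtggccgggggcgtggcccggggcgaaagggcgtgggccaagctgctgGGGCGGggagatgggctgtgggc

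The GC box was found 9 bases before the start in Sema3e and, on the opposite strand, 48 bases before it. Unc5b held it 47 and 89 bases before the start, both on the opposite strand, and Plxnd1 held it 23 bases before the start. These letters were not in the windows of Ephb1 and Sema3d. Of 32526 promoter windows of the same length, 33.0% held the GC box. The E-box letters CAGCTG (in 13.1% of windows) and CAGATG (14.4%) and the cAMP response element TGACGTCA (1.56%), each searched on both strands, were in none of the 5 windows, and no motif overlapped another. GC content was 54.0% in Ephb1, 48.0% in Sema3e, 66.8% in Unc5b, 46.8% in Sema3d and 64.8% in Plxnd1, against a median of 52.4% over all windows. Sema3e and Unc5b, both low in granule nuclei, differed in GC content while both held the motif.

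Levels were compared over 6 neuronal classes: dentate granule, CA1 pyramidal and CA2/CA3 pyramidal neurons, a class of subicular or cortical excitatory neurons, and interneurons of MGE and CGE type (named for the medial and caudal ganglionic eminences, where they arise). Of the 66 members, 61 reached 100 UMIs over these classes, and Sema3b, Plxnb3, Efna4, Epha1 and Ephb4 did not. Of all genes, 17139 reached the same minimum, and they were not otherwise matched to the members for depth. The ratio of the highest to the lowest class, each taken as the median of 4 libraries, had a median of 7.94 over the 61 members and of 2.18 over these genes. It passed 10-fold in 27 members (44.3%) against 17.6% of all genes, and stayed under 2-fold in 8 members (13.1%) against 45.4%. The widest spreads were those of Ntn4 (359-fold), Sema5a (349.8-fold), Sema3a (195-fold) and Sema3c (184-fold), while Sema6b (1.22-fold) and Robo2 (1.65-fold) lay nearly level over the classes.

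The same class was highest in all 4 libraries for 41 of the 61 members, and in 36 of these its libraries did not overlap those of the next class. Of the 17139 genes with at least 100 UMIs, 45.8% had one highest class in all 4 libraries and 30% also did not overlap the next class. With every nucleus weighted equally the counts of members were 44 and 34, against 43% and 28% of all genes. Granule nuclei led for 10 members, among them Sema5a, Plxna4, Epha7, Slit1 and Slit3. CA1 nuclei led for Sema3e, Epha6, Ephb3 and Efna3. CA2/CA3 nuclei led for 11, among them Dcc, Unc5c, Slit2, Nrp1, Ephb1 and Ephb2. Subicular or cortical nuclei led for 6, MGE-type interneurons for 5, including Unc5d, Ntn4 and Plxnc1, and CGE-type interneurons for 5, including Sema3c, Sema6a and Robo1. The share of all genes led by each class is not set beside these counts. They therefore do not rank the classes by how rich they are in members.

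These classes leave out the unnamed nuclei and the other types. Over all 44 clusters, the highest level lay in 1 of the 20 unnamed clusters for 33 of the 66 members and in a cluster of the 6 classes for 13. No minimum of UMIs was set for these counts, so they include sparse members such as Epha1, at most 2.38 CPM in any cluster. The share of all genes is not set beside them, so they do not set members apart from other genes. One unnamed cluster of 770 nuclei (95, 297, 183 and 195) held the interneuron markers Gad1, Gad2, Lhx6 and Nxph1 and came closest to the MGE type, and is described here after its values were seen. It held Sema3c at 349, 362, 403 and 373 CPM and Unc5c at 6466, 6498, 7079 and 5910.5, above each of the 6 classes for both genes. The leading classes given here are therefore the highest of 6, and not of all neurons.

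**Figure D1:**
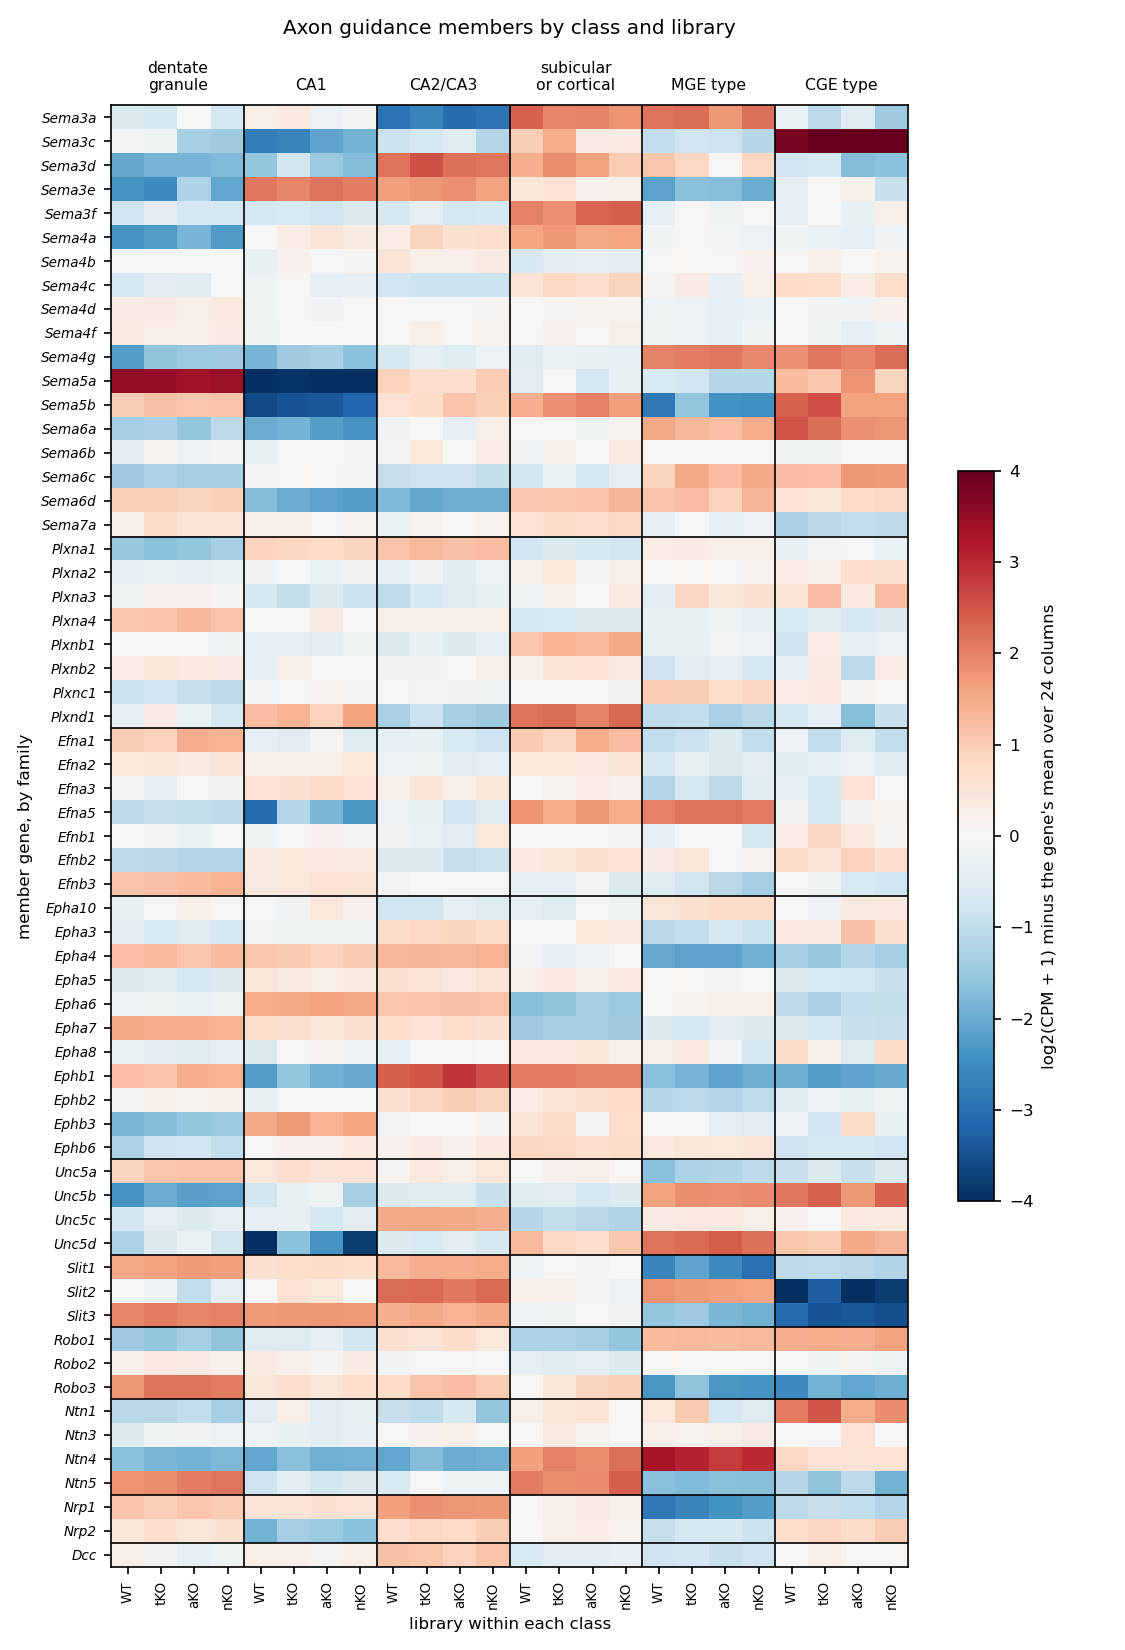
Levels of the 61 members with at least 100 UMIs, as log2(CPM + 1) minus the gene's mean over 24 columns, with colours ending at 4 in either direction; columns are the 4 libraries (WT, wild type; tKO, total knockout; aKO, astrocyte knockout; nKO, neuron knockout) within each of 6 neuronal classes and lines part the gene families. Most of the colour changes from class to class, as for Sema5a, Sema3c and Slit2, and little from library to library within a class.

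Among the secreted semaphorins, Sema3a, a repellent that binds Nrp1, lay at 48.1, 36.1, 36.6 and 32.3 CPM in subicular or cortical nuclei and 42.1, 43.4, 30.8 and 43.2 in MGE-type interneurons. CA2/CA3 nuclei held 0.219, 0.539, 0.156 and 0.219 CPM, from 12 UMIs over the 4 libraries. The 2 high classes overlapped each other and stood far above CA2/CA3 in every library. Sema3c lay at 133, 180.4, 172 and 156 CPM in CGE-type interneurons and at no more than 26.1 in the other 5 classes, below its level in the unnamed interneuron cluster. Sema3d was highest in CA2/CA3 at 19.8, 26.2, 20.6 and 19.6 CPM, with granule nuclei at 0.121 to 0.370. Sema3e, the ligand of Plxnd1, lay at 409, 368, 423 and 391 CPM in CA1 and 298, 319, 336 and 291 in CA2/CA3, and at 17.4, 15.6, 39.6 and 21.4 in granule nuclei. Sema3f, which binds Nrp2, was detected above 1.02 CPM in the subicular or cortical class alone among the 6, at 6.08, 5.17, 7.76 and 8.01.

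These neighbours on chromosome 5 had different leading classes. Sema3d (chr5:12383385-12588948, plus strand), Sema3a (chr5:13125414-13602565, plus strand), Sema3e (chr5:14025276-14256689, plus strand) and Sema3c (chr5:17574281-17730268, plus strand, all GRCm38, GENCODE release M21) were, of the 6 classes, highest in CA2/CA3, in MGE-type or subicular nuclei, in CA1 and in CGE-type interneurons.

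Of the membrane-bound semaphorins, Sema5a separated the neuron types most. Sema5a, which carries thrombospondin repeats and limits excitatory synapses on granule cells, lay at 745, 732, 659 and 698 CPM in granule nuclei and at 1.88, 3.22, 2.15 and 1.94 in CA1. CA2/CA3 nuclei stood between, at 120.3, 100.03, 99.8 and 129 CPM. Its relative Sema5b was also low in CA1 (0.327, 0.461, 0.538 and 0.775 CPM) and lay at 30.5, 34.9, 33.8 and 34.4 in granule nuclei. In CGE-type interneurons Sema5b lay at 80.9, 94.8, 48.5 and 47.6 CPM, and no single class of the 6 was highest for it in all 4 libraries. Sema6d, a transmembrane cue that binds A-type plexins, lay at 531, 538, 511 and 531 CPM in granule nuclei, 82.6, 68.6, 61.9 and 58.5 in CA1 and 78.8, 66.6, 71.3 and 70.4 in CA2/CA3, so both pyramidal classes were low. Sema6a was highest in interneurons, at 189, 155, 117 and 113 CPM in the CGE type and 94.5, 82.4, 75.7 and 92.4 in the MGE type. Sema4a, a class 4 member, lay at 1.03 to 1.90 CPM in granule nuclei and at 29.3 to 34.1 in the subicular or cortical class. Sema7a, which is anchored in the membrane by a lipid and binds Plxnc1, lay at 23.97, 27.7, 26.1 and 28.7 CPM in subicular or cortical nuclei and at 5.85, 6.90, 7.61 and 7.13 in CGE-type interneurons, while Plxnc1 was highest in MGE-type interneurons at 120.3, 117, 96.1 and 107.

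The receptors of the semaphorins divided the same classes in other ways. Plxna1 lay at 33.4, 37.1, 33.8 and 35.3 CPM in CA2/CA3, 28.4, 27.05, 25.99 and 27.5 in CA1 and 4.41, 4.01, 4.30 and 5.10 in granule nuclei. Plxna4 was highest in granule nuclei at 1137, 1165, 1342 and 1169 CPM against 506, 538, 675 and 521 in CA1. Plxna2 was spread widely, from 159 to 176 CPM in granule nuclei to 254 to 331 in CGE-type interneurons. Plxnd1, the receptor of Sema3e, lay at 13.6, 14.4, 11.9 and 15.2 CPM in subicular or cortical nuclei, 6.63, 7.63, 5.20 and 8.99 in CA1 and 0.329, 0.808, 0.312 and 0.219 in CA2/CA3. CA1 thus held both Sema3e and a detectable level of its receptor, while CA2/CA3 held the ligand with Plxnd1 below 1 CPM in every library. The neuropilin Nrp1 was highest in CA2/CA3 at 756, 847, 809 and 802 CPM and lowest in MGE-type interneurons at 32.4, 37.8, 44.8 and 50.99. Nrp2 was lowest in CA1, at 24.3, 35.6, 32.8 and 29.3 CPM, against 151, 169, 165 and 186 in CA2/CA3 and 131, 150.01, 133 and 142 in granule nuclei, with no overlap.

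Among ephrins, Efna5, a lipid-anchored ligand of EphA receptors, lay at 378, 419, 419 and 385 CPM in MGE-type interneurons and 321, 262, 316 and 261 in subicular or cortical nuclei. CA1 was lowest for it at 10.1, 39.9, 24.97 and 17.4 CPM, with a wide spread that is taken up below. Efnb2 lay at 42.5, 44.2, 43.3 and 43.01 CPM in CA1 and 15.1, 14.8, 14.1 and 14.1 in granule nuclei, nearly the same in each library of a class. Of their receptors, Epha4 was high in all 3 principal types, at 603 to 675 CPM in granule nuclei, 537 to 602 in CA1 and 699 to 736 in CA2/CA3, and low in MGE-type interneurons at 62.6 to 73.7. Epha5 ran from 606 to 758 CPM in CGE-type interneurons to 1472 to 1723 in CA2/CA3. Epha6 and Epha7 pointed opposite ways between granule and CA1 nuclei. Epha6 lay at 1844, 1898, 1833 and 1900.4 CPM in granule nuclei and 6087, 6333, 6645 and 6422 in CA1, and Epha7 at 1419, 1343, 1350.3 and 1286 in granule nuclei and 792, 756, 688 and 744 in CA1. Ephb1, a receptor of B-type ephrins, lay at 139.8, 147, 191 and 159 CPM in CA2/CA3, 60.4, 57.9, 71.99 and 69.3 in granule nuclei and 4.66, 7.83, 6.03 and 5.50 in CA1. Ephb2 differed less, at 107 to 141 CPM in CA2/CA3 and 57.3 to 68.7 in CA1. Ephb3 was instead a CA1 gene among these types, at 10.4, 12.2, 9.44 and 10.9 CPM against 2.74, 2.96, 3.04 and 3.29 in CA2/CA3 and at most 0.444 in granule nuclei.

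Netrin-1 itself (Ntn1) was sparse in the 6 neuronal classes. It lay at 11.4, 15.4, 7.21 and 9.93 CPM in CGE-type interneurons and at 0.148 to 0.494 in granule nuclei, where 22 UMIs were counted in all 4 libraries. An unnamed cluster of 408 nuclei nearest to the CGE type, looked at after the values were seen, held it at 48.7, 54.2, 33.97 and 53.5 CPM. Its attractive receptor Dcc was found in every class, at 3369.7, 3237, 2841 and 3247 CPM in CA2/CA3, 1775, 1725, 1589 and 1789 in CA1, 1774, 1342, 1157 and 1302 in granule nuclei and 839, 900.1, 790.2 and 829.7 in MGE-type interneurons. Of the 4 Unc5 receptors, Unc5a, Unc5c and Unc5d each had a different class of the 6 highest in all 4 libraries. Unc5a was highest in granule nuclei, at 49.04, 58.3, 59.6 and 58.96 CPM. Unc5b lay at 21.01, 25.2, 16.03 and 25.2 CPM in CGE-type interneurons, with at most 0.293 in granule nuclei, and no single class was highest for it in all 4 libraries. Unc5c was highest in CA2/CA3, at 2046, 2014, 2038 and 1912 CPM against 539, 580.1, 434 and 518 in CA1 and 423, 538, 486 and 558 in granule nuclei. Unc5d was highest in MGE-type interneurons, at 1829, 1955, 2149 and 1847 CPM, and lowest in CA1, at 11.3, 128, 77.01 and 28.2. Of the other netrins, Ntn4 lay at 40.3, 34.7, 28.7 and 32.7 CPM in MGE-type interneurons and under 0.4 in the 3 principal types, and Ntn5 at 11.8, 12.3, 14.2 and 15.2 CPM in granule nuclei against 1.06, 1.78, 1.19 and 1.47 in CA1. Sec1 lies on the strand opposite to Ntn5, and whether strand was used in counting is not given.

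The Slit ligands shared their order over excitatory classes only in part. Slit1 lay at 349.5, 373, 395 and 379.8 CPM in granule nuclei, 297, 331, 335 and 341 in CA2/CA3 and 186, 197, 202 and 197 in CA1, and at 18.8, 27.5, 19.9 and 14.3 in MGE-type interneurons. Slit3 followed with 1939, 2054, 1937 and 2003 CPM in granule nuclei, 1637, 1669.8, 1709.7 and 1622 in CA1 and 57.9, 44.8, 46.9 and 42.5 in CGE-type interneurons. Slit2 differed from both, since it lay at 745, 767, 679 and 765 CPM in CA2/CA3, 549.5, 517, 494 and 473 in MGE-type and 8.26, 15.6, 8.81 and 10.4 in CGE-type interneurons. Gm12122 overlaps Slit3 on the same strand and a further transcript lies opposite Slit2, so a part of these counts could be theirs. Among the receptors, Robo1 was highest in interneurons, at 2063, 2111, 2058 and 2314 CPM in the CGE type and 1803 to 1854 in the MGE type, and lay at 274, 254, 294 and 244 in granule nuclei. Robo2 ran only from 555 to 625 CPM in subicular or cortical nuclei to a median of 972 in CA1, with granule nuclei at 933 to 1057. Robo3, known from commissural axons, was highest in granule nuclei at 18.6, 25.5, 25.5 and 23.97 CPM and stayed below 1 CPM in both interneuron classes.

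Of the remaining members, Sema4b, Sema4d, Sema4f, Sema6b, Efnb1 and Ntn3 varied by less than 2-fold over the classes, as did Robo2 and Plxna2. Sema4g lay at 25.4 to 28.8 CPM in MGE-type and 23.8 to 31.3 in CGE-type interneurons and at no more than 4.94 in any excitatory class, and Sema6c followed the same division at 15.3 to 24.1 and 19.3 to 28.8 against no more than 8.23. Both are transmembrane semaphorins. Plxnb1 (2.84 to 4.26 CPM) led in subicular or cortical nuclei and Epha10 (142 to 176 CPM), an Eph receptor that lacks kinase activity, in MGE-type interneurons. Epha8 did not pass 2.41 CPM in any class and library, and Efna2 stayed between 2.16 and 6.07.

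**Figure D2:**
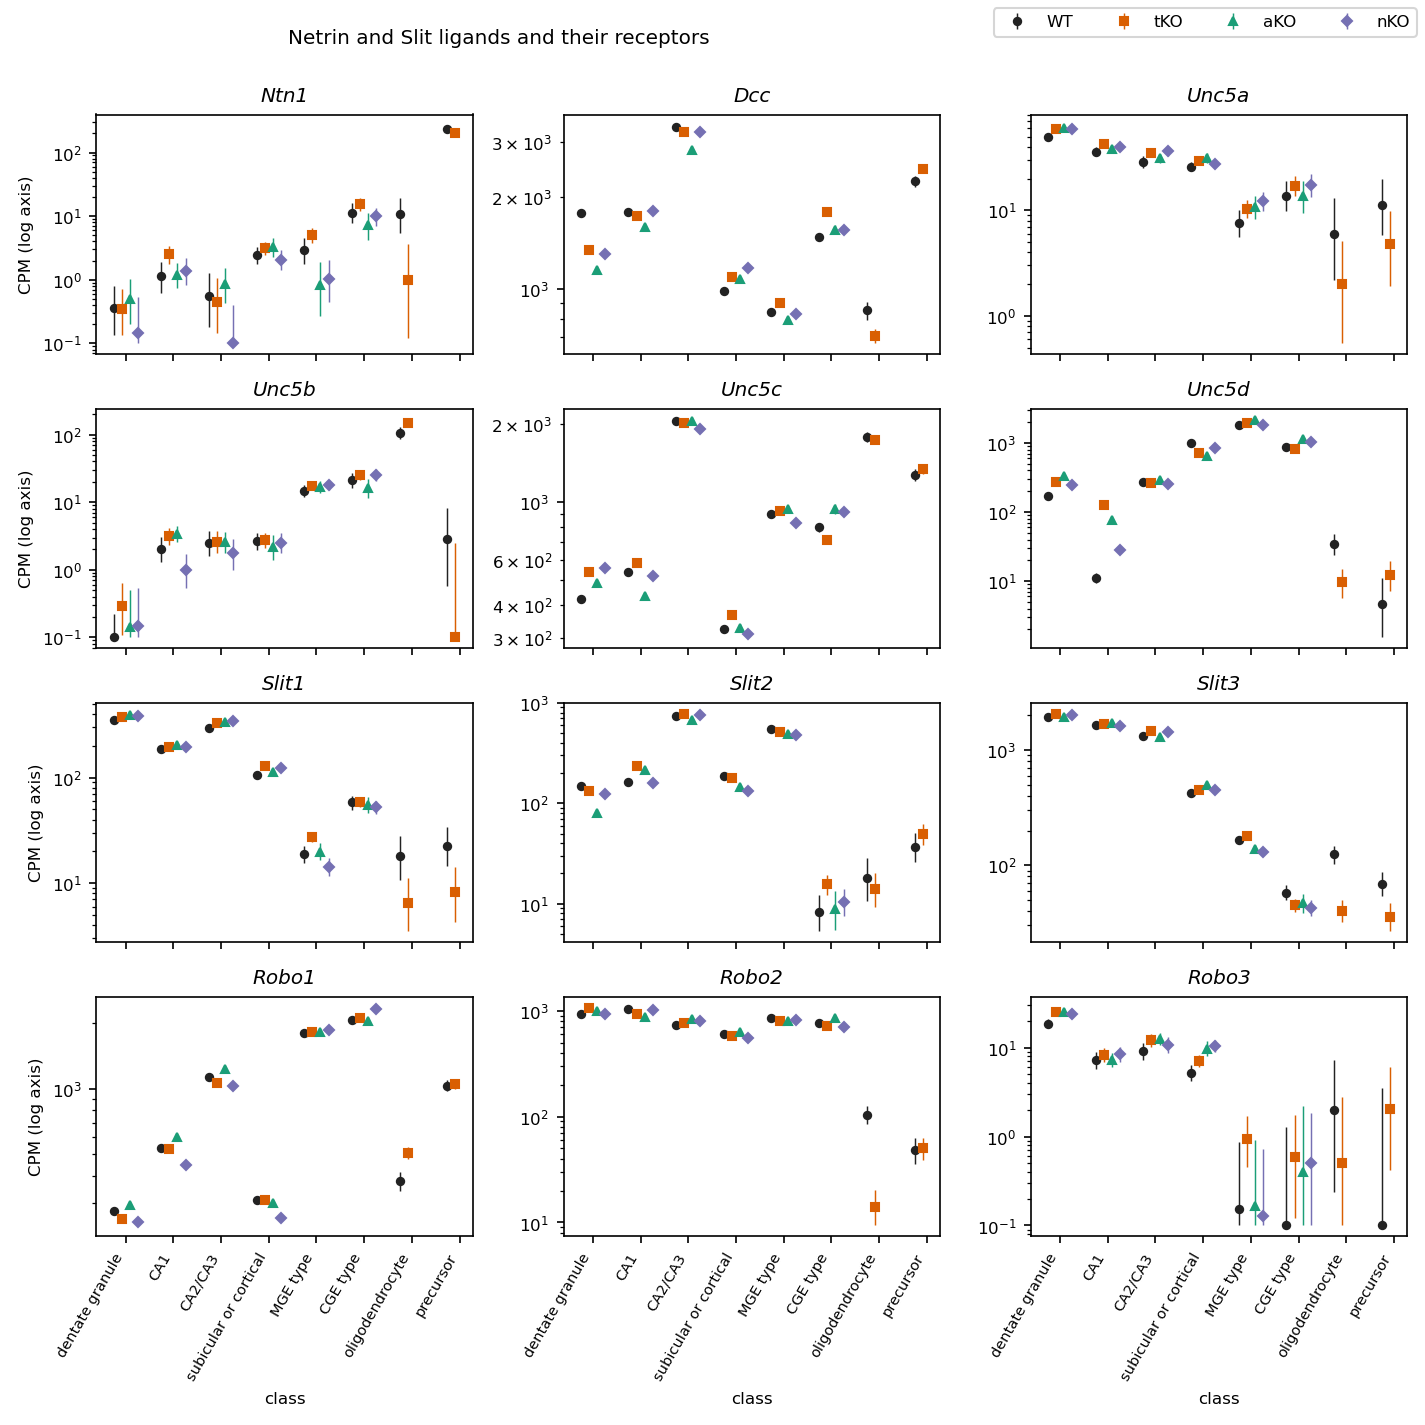
CPM on log axes of Ntn1, Dcc, the 4 Unc5 receptors, the 3 Slits and the 3 Robo receptors in 6 neuronal classes (4 libraries) and in oligodendrocytes and their precursors (wild type and total knockout only); points are libraries, bars exact 95% Poisson intervals and values under 0.1 CPM are drawn at 0.1. Of the 6 classes Unc5c leads in CA2/CA3 and Unc5d in MGE-type interneurons, while Slit2 stands far lower in CGE-type than in MGE-type interneurons, and Ntn1 is highest in precursors.

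To compare classes without treating nuclei as replicates, a member was called separated where the lowest of the 4 libraries in one class lay at least 2-fold above the highest in the other, with at least 100 UMIs over both classes. This is a description of 4 libraries, since classes are themselves made from expression and the smallest exact two-sided p of 4 pairs is 0.125. The gap given for a member is that lowest-over-highest ratio.

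Between granule and CA1 nuclei, 56 members were deep enough. Granule nuclei were above CA1 in 8 of them, 14.3%, against 6.34% of all genes tested, and CA1 above granule nuclei in 9, 16.1%, against 5.71%. On the granule side the gap was 204-fold for Sema5a, 39.4-fold for Sema5b, 7.39-fold for Ephb1, 6.64-fold for Ntn5, 6.18-fold for Sema6d and 3.67-fold for Nrp2. Efna1 and Robo3 completed this side. On the CA1 side it was 21.3-fold for Ephb3, 9.31-fold for Sema3e, 5.09-fold for Plxna1, 5.07-fold for Sema4a, 3.44-fold for Unc5b and 3.20-fold for Epha6. Efnb2, Sema6c and Ntn1 made up the rest. Both sides held ligands and receptors of several families. Where each nucleus was gated on its own markers in place of clusters, 61 members were deep enough. Of these, 4 stayed on the granule side, against 4.66% of all genes, because Ephb1, Sema6d, Efna1 and Robo3 no longer passed. On the CA1 side 7 stayed, against 5.01%, without Unc5b and Ntn1.

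Between the 2 pyramidal classes, CA2/CA3 lay above CA1 in 11 of 56 members, 19.6%, against 4% of all genes tested, and CA1 above CA2/CA3 in 3, 5.36%, against 3.26%. The CA2/CA3 side was led by Sema5a (30.9-fold), Sema5b (29.5-fold), Ephb1 (17.9-fold), Sema3d (11.1-fold), Nrp2 (4.24-fold) and Unc5c (3.30-fold). Sema6a, Slit2, Nrp1, Sema3c and Unc5d followed. CA1 was above for Sema3a (13.2-fold), Plxnd1 (6.43-fold) and Ephb3 (2.87-fold). Sema5a, Sema5b, Ephb1 and Nrp2 were therefore low in CA1 against both other principal types. With nuclei gated on their own markers, the counts were 8 and 7 of 61, against 2.58% and 3.93% of all genes. Sema6a, Sema3c and Unc5d no longer passed on the CA2/CA3 side, where Unc5d turned to a log2 ratio of CA1 over CA2/CA3 of 0.20, and Efnb2, Ntn4, Sema3f and Sema6d joined the CA1 side.

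Granule nuclei were above CA2/CA3 in 6 of 56 members, 10.7%, against 6.05% of all genes tested. These were Sema3a (9.34-fold), Sema6d (6.48-fold), Sema5a (5.11-fold), Efna1 (4.43-fold), Ntn5 (4.24-fold) and Efnb3 (2.22-fold). CA2/CA3 lay above granule nuclei in 13, 23.2%, against 6.23%. The widest gaps there were those of Sema3d (53.1-fold), Sema3e (7.35-fold), Plxna1 (6.55-fold), Ephb3 (6.17-fold), Sema4a (6.16-fold) and Unc5b (5.99-fold). Sema3e, Plxna1, Ephb3, Sema4a, Unc5b and Epha6 lay above granule nuclei in CA1 as in CA2/CA3. With gated nuclei, 57 members were deep enough. Of these, 10 lay higher in CA2/CA3, against 4.5% of all genes, and Sema4g, Ephb6 and Unc5b did not pass. Granule nuclei were then above in 6, against 5.76%.

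**Figure D3:**
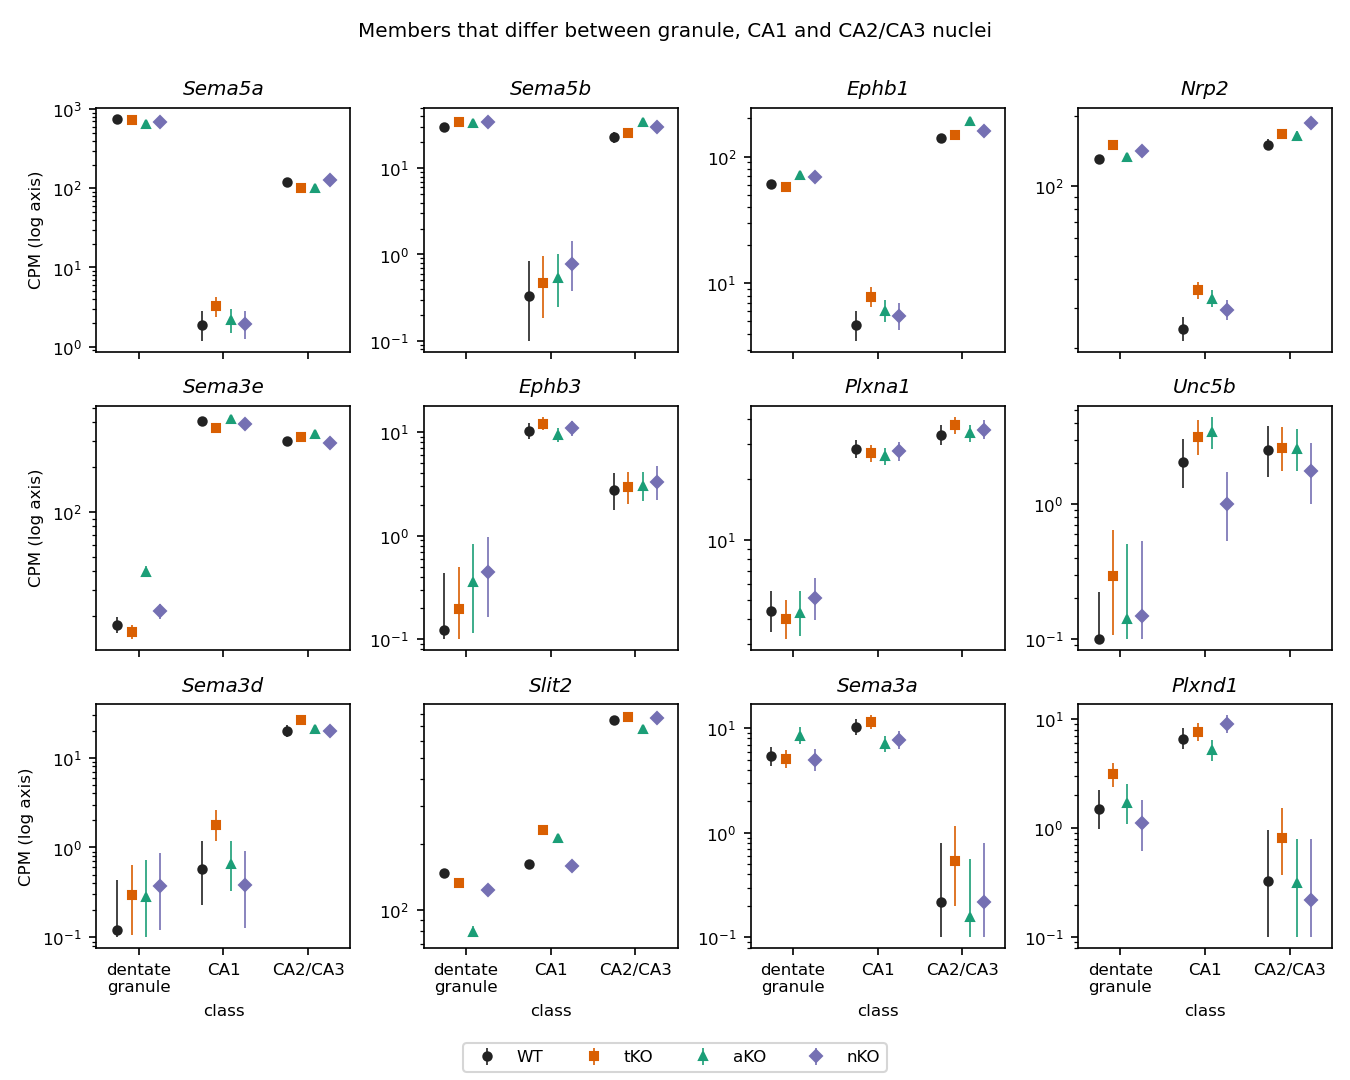
CPM on log axes of 12 members in granule, CA1 and CA2/CA3 nuclei; each point is 1 of 4 libraries, bars are exact 95% Poisson intervals and values under 0.1 CPM are drawn at 0.1. Sema5a, Sema5b, Ephb1 and Nrp2 drop in CA1, Sema3e, Ephb3, Plxna1 and Unc5b are low in granule nuclei, and Sema3a and Plxnd1 are lowest in CA2/CA3.

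Among interneurons, 54 members could be compared. The MGE type was above the CGE type in 7, 13.0%, against 2.59% of all genes tested, and the CGE type above the MGE type in 6, 11.1%, against 2.41%. The MGE side held Slit2 (30.4-fold), Sema3a (4.48-fold), Ntn4 (4.38-fold), Efna5 (3.71-fold), Slit3 (2.26-fold) and Ephb6 (2.16-fold), with Sema3d at the limit. The CGE side held Sema3c (29.03-fold), Sema5b (10.8-fold), Sema5a (2.91-fold), Nrp2 (2.55-fold), Nrp1 (2.09-fold) and Epha3 (2.03-fold). Both neuropilins thus lay higher in the class with more Sema3c, and the MGE type carried more of 2 Slits. With nuclei gated on their own markers, each side held 5 of 54 members, against 1.85% of all genes on the MGE side and 1.79% on the CGE side. Efna5, Epha3, Nrp1, Nrp2 and Slit3 no longer passed the 2-fold gap, and Ntn1 and Sema3e joined the CGE side.

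Classes were not uniform inside. The MGE type was made of a cluster led by Sst and a cluster led by Pvalb, which mark the 2 main MGE interneuron kinds. Slit2 lay at 992, 925, 883 and 891 CPM in the Pvalb cluster and 91.4, 127, 102 and 108 in the Sst cluster, while Efna5 lay at 531, 566, 596 and 557 in the Sst cluster and 231, 265, 244 and 189 in the Pvalb cluster. The CGE type was made of a cluster led by Slc17a8 and Cxcl14, with Cnr1 among its leading genes, and a cluster led by Vip. Sema5b lay at 185, 203, 184 and 183 CPM in the Vip cluster and 9.85, 11.2, 6.81 and 12.8 in the other. The values of each pair of clusters did not overlap. In CA2/CA3 the cluster with the CA2 genes Amigo2 and Map3k15 among its leading genes held Slit2 at 101, 70.4, 103 and 133 CPM against 847, 902, 822 and 916 in the largest cluster, and Ephb1 at 10.5, 6.40, 6.73 and 15.03 against 173, 187, 253 and 203. Sema3d was instead highest in a further CA2/CA3 cluster, at 62.6, 47.1, 55.5 and 42.6 CPM. In CA1, Slit2 lay at 419, 578, 523 and 411 CPM in the smaller cluster and 81.96, 85.6, 93.4 and 85.6 in the larger. Clusters were formed without the member genes, though with genes that vary with them.

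Glial levels are given here for wild type and total knockout, the only libraries with at least 100 nuclei of each type. Astrocyte Mgll above and oligodendrocyte Unc5d below are given for all 4 libraries, with fewer nuclei in the restricted knockouts. Oligodendrocyte precursors held Ntn1 at 236 CPM in wild type and 206 in total knockout, far above any neuronal class, together with Dcc at 2245 and 2462. They also held Sema3d at 427 and 409 CPM and Sema5b at 240.2 and 265. Oligodendrocytes carried Plxnb3 at 169 and 180.3 CPM, a plexin that stayed below 0.6 in the neuronal classes. They held Unc5c at 1779.9 and 1726 CPM, Unc5b at 105 and 149, Ephb1 at 529 and 676, and Sema6a at 677 and 743. Robo2 lay at 103 and 14.1 CPM in oligodendrocytes and at 466 and 687 in astrocytes, in the same order. The part of free RNA in the lower of these glial levels was not tested.

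The study's own comparison is each knockout library against wild type. There is 1 library per genotype, so no test was possible and intervals cover counting error only. A member was taken as past the fold where its CPM ratio, with 1 UMI added to each side, reached 1.5-fold in either direction with at least 100 UMIs over both libraries. Members are not independent samples, and the 3 comparisons share the wild-type library. Counted over the 6 classes, 10 of 278 comparisons of a member were past the fold in total knockout, 3.597% against 5.19% of all genes tested over the same classes. All 10 were higher, against 1.25% of all genes higher and 3.93% lower. In astrocyte knockout 17 of 269 were past it, 6.32% against 4.1% of all genes, with 8 higher (2.97% against 1.26%) and 9 lower (3.35% against 2.83%). In neuron knockout 13 of 271 were, 4.797% against 4.75%, with 8 higher (2.95% against 1.3%) and 5 lower (1.85% against 3.45%). Counted in either direction, the members' shares were thus near those of all genes. These 40 came from 23 members. Median log2 ratios of the tested members lay between -0.02 and 0.14 over the 18 class and library pairs, and those of all genes between -0.06 and -0.01.

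In granule nuclei 48 members were tested. Past the fold were 2 in total knockout, 7 in astrocyte knockout and 1 in neuron knockout, against 5.49%, 5.32% and 4.43% of all genes tested. Dcc lay at 1774, 1342, 1157 and 1302 CPM, so each knockout library was below wild type, and only astrocyte knockout passed, at a log2 ratio of -0.62 (95% interval -0.64 to -0.59). Sema3c lay at 8.04, 7.48, 2.82 and 2.59 CPM, with log2 ratios of -1.49 (95% interval -2.06 to -0.99) in astrocyte knockout and -1.61 (95% interval -2.22 to -1.09) in neuron knockout. Sema3e, at 17.4, 15.6, 39.6 and 21.4 CPM, was higher in astrocyte knockout by 1.19 (95% interval 0.98 to 1.40). Slit2, at 147, 132, 79.3 and 123 CPM, was lower there by -0.89 (95% interval -0.998 to -0.79). Unc5d, at 169, 275, 334 and 243 CPM, was above wild type in each knockout library, with log2 ratios of 0.70 (95% interval 0.64 to 0.77) in total knockout and 0.98 (95% interval 0.91 to 1.05) in astrocyte knockout. Sema3a (0.66) and Ephb6 (0.59) in astrocyte knockout and Sema6b (0.59) in total knockout were the other 3.

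The 2 clusters of the granule class differed in these genes, and their shares differed between libraries. One, with C1ql2 and Plk5 among its leading genes, held 45.1%, 69.2%, 56.9% and 54.1% of the granule nuclei. In that cluster Dcc lay at 1384, 1058, 826 and 941 CPM and Unc5d at 331, 381, 519.9 and 388, and in the other, with Glis3 and Prox1, Dcc lay at 1971, 1705, 1428 and 1556 and Unc5d at 87.2, 139.8, 181 and 141. Dcc was thus lower than wild type in each knockout library in both clusters, while its log2 ratio in astrocyte knockout was -0.74 in the first and -0.46 in the second. In astrocyte knockout Sema3e (0.87 and 1.21), Slit2 (-1.24 and -0.66) and Unc5d (0.65 and 1.05) were past the fold in both clusters. Among male nuclei alone, Sema3e (0.57), Slit2 (-0.50) and Dcc (-0.42) were short of the fold in astrocyte knockout, and Unc5d stayed past it (0.63). Sema3a turned to -0.17 there, from 20 UMIs against 32 in wild type. The part of the cluster shares in the ratios was not tested. In total knockout Unc5d had log2 ratios of 0.20 in the first cluster and 0.68 in the second, so it was short of the fold in the first. Sema3c lay at 17.7, 10.4, 4.06 and 2.69 CPM in the first cluster and 3.19, 3.78, 1.80 and 2.52 in the second, where its ratio was -0.77 in astrocyte knockout and -0.31 in neuron knockout. When each nucleus was gated on its own markers, Sema3c was at -0.22 and -0.13 in the same libraries, Unc5d at 0.55 in total and 0.47 in astrocyte knockout, and Dcc at -0.46 in astrocyte knockout, all short of the fold. Sema3e (1.14) and Slit2 (-0.86) stayed past it. Of the remaining calls, Sema3a turned to -0.35, and Ephb6 (0.34) and Sema6b (0.48) were short of the fold.

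In CA1, 45, 46 and 45 members were tested in the order total, astrocyte and neuron knockout, and 4, 2 and 2 were past the fold, all higher. The shares of all genes were 5.49%, 3.25% and 4.23%. The widest ratio of any member in total and in astrocyte knockout belonged to Unc5d, while in neuron knockout Sema3c in granule nuclei was farther from wild type. Unc5d lies at chr8:28646717-29219636, minus strand (GRCm38). Its level was 11.3, 128, 77.01 and 28.2 CPM, from 138, 1943, 1289 and 364 UMIs, with log2 ratios of 3.49 (95% interval 3.25 to 3.76), 2.76 (95% interval 2.52 to 3.03) and 1.32 (95% interval 1.03 to 1.61) in the same order of knockouts. Efna5 lay at 10.1, 39.9, 24.97 and 17.4 CPM with ratios of 1.98 (95% interval 1.70 to 2.28), 1.30 (95% interval 1.02 to 1.61) and 0.79 (95% interval 0.47 to 1.12). Both genes were lowest in wild type and in the same order of libraries. Ephb1 (0.74) and Plxnb2 (0.64) were past the fold in total knockout only.

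Both Unc5d and Efna5 were concentrated in the smaller CA1 cluster, which held 21.3%, 27.2%, 25.2% and 20.5% of the CA1 nuclei. Unc5d lay there at 38.2, 392, 249 and 105 CPM and in the larger cluster at 2.90, 13.6, 9.88 and 6.19. Efna5 lay at 24.1, 109, 68.1 and 42.7 CPM in the smaller cluster. Nuclei with 5 or more Unc5d UMIs were 5 of 223 in wild type (2.24%, exact 95% interval 0.732% to 5.15%), 95 of 597 in total knockout (15.9%, 13.1% to 19.1%), 44 of 490 in astrocyte knockout (8.98%, 6.60% to 11.9%) and 15 of 257 in neuron knockout (5.84%, 3.30% to 9.44%). These nuclei, chosen by their Unc5d UMIs, held 27.1%, 60.7%, 49.1% and 42.3% of the Efna5 UMIs of the cluster, in the same order of libraries. In the rest of the cluster Efna5 lay at 17.99, 51.4, 38.2 and 26.3 CPM. After each nucleus was thinned to 1000 UMIs, 2.69%, 15.6%, 9.18% and 6.23% of the nuclei of the smaller cluster held an Unc5d UMI, against 15.7%, 30.3%, 24.1% and 19.5% before thinning. Oligodendrocytes, set beside these as a class of another lineage, showed 1.11% (exact 95% interval 0.304% to 2.83%), 0.706% (0.284% to 1.45%), 5.56% (0.680% to 18.7%) and 4.08% (0.498% to 14.0%) after thinning, from 359, 991, 36 and 49 nuclei. Their median depths were 2044, 1209, 1544 and 1715 UMIs against 12756, 7389, 9162 and 10512 in the smaller CA1 cluster. Unc5d lay in them at 34.8, 9.57, 175 and 148 CPM, from 35, 19, 23 and 23 UMIs. Before thinning, 4.66%, 0.874%, 11.9% and 7.55% of them held a UMI. Their level was thus above that of the whole CA1 class in wild type, astrocyte and neuron knockout, and below it in total knockout. The intervals of the shares in oligodendrocytes and in the smaller CA1 cluster overlapped in the same 3 libraries. In astrocyte and neuron knockout the oligodendrocyte share came from 2 nuclei with a UMI in each library, so little can be read from the overlap there. All intervals of shares cover the draw of nuclei within 1 library and not the spread between animals.

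The nuclei with 5 or more Unc5d UMIs also carried more of the subicular or cortical marker list. Their summed level of its 13 markers was 1191, 1946, 2207 and 1601 CPM, against 709, 778, 819 and 647 in the rest of the cluster. Of the 13, 3, 8, 8 and 8 were higher in those nuclei than in the rest, Hs3st4 and Rorb in all 4 libraries, and 8, 2, 4 and 3 were at 0, Nts in all 4. Their CA1 marker list lay at 1005, 621, 708 and 748 CPM, against 1381, 1221.0, 1211 and 1313 in the rest. The same nuclei thus held less of the CA1 list and more of the other in each library. In the largest subicular or cortical cluster Unc5d lay at 1514, 1294, 1068 and 1307 CPM. Gating nuclei one by one on their own markers gave 8691 CA1 nuclei, of which 62.8% were in the clustered CA1 class. It thus took partly other nuclei, and its levels are not those of the same class. In the gated CA1 nuclei Unc5d lay at 332, 356, 216 and 270 CPM. Its log2 ratio was 0.10 in total knockout, -0.62 in astrocyte knockout and -0.30 in neuron knockout. Efna5 then had ratios of 0.41, -0.08 and 0.25, Ephb1 of 0.21 and Plxnb2 of 0.14 in total knockout, so no call of Efna5, Ephb1 or Plxnb2 stayed past the fold. Unc5d passed it in astrocyte knockout, but in the lower direction, and was short of it in total and neuron knockout. With doublets kept, the Unc5d ratios were 1.85, 0.56 and -0.80 and those of Efna5 1.22, 0.30 and -0.17, so both genes stayed past the fold and higher in total knockout, fell short of it in astrocyte knockout and turned in neuron knockout. Among male nuclei alone, where wild type had 26 Unc5d UMIs, the Unc5d ratios were 4.62, 3.27 and 2.32 and those of Efna5 2.06, 0.93 and 1.04, all past the fold. The part of these marker genes and of doublets in the higher Unc5d and Efna5 of CA1 was not tested.

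**Figure D4:**
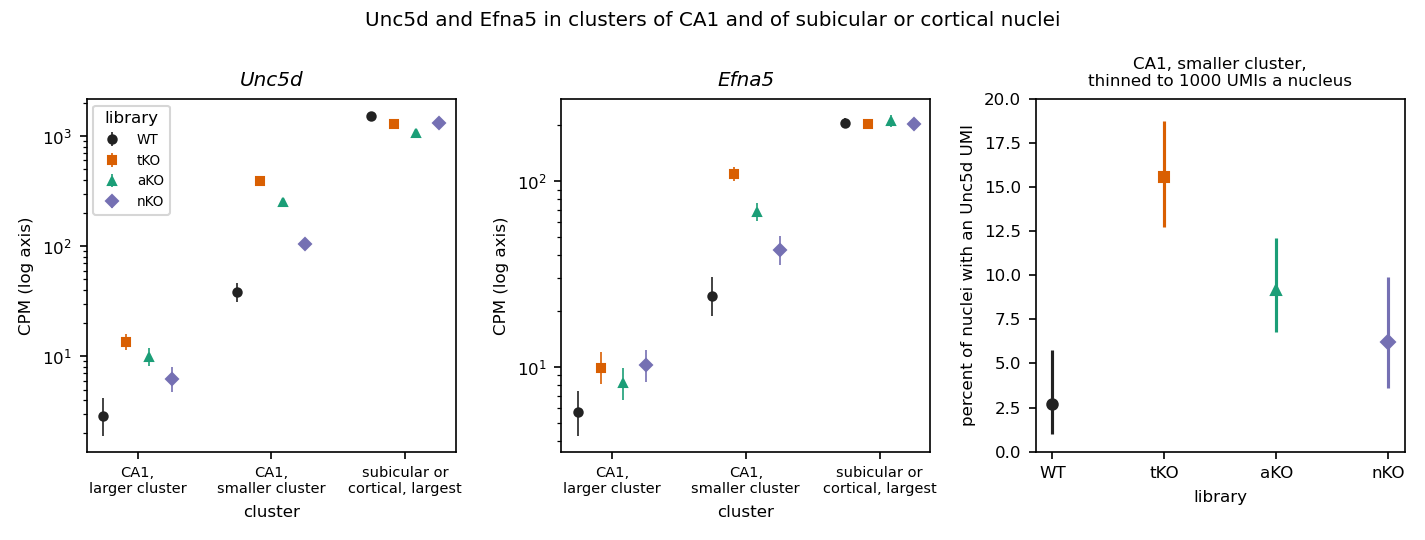
Left and middle, CPM on log axes of Unc5d and Efna5 in the larger and smaller CA1 clusters and the largest subicular or cortical cluster, with exact 95% Poisson intervals; right, percent of nuclei of the smaller CA1 cluster with an Unc5d UMI after thinning to 1000 UMIs, with exact 95% binomial intervals, each symbol 1 library. Wild type is lowest in both CA1 clusters for both genes, and the share of nuclei runs from 2.69% in wild type to 15.6% in total knockout.

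In CA2/CA3, of 42, 44 and 43 tested, 1 was past the fold in total knockout and none in the other 2 libraries, against 4.61%, 2.34% and 4.26% of all genes. The exception was Sema4a, at 11.7, 18.2, 14.8 and 15.7 CPM, with a log2 ratio of 0.63 (95% interval 0.29 to 0.99) in total knockout and values above wild type in all 3 knockout libraries. Dcc and Unc5c, the 2 netrin receptors for which CA2/CA3 led, had log2 ratios of -0.06 and -0.02 in total knockout, -0.25 and -0.01 in astrocyte knockout, and -0.05 and -0.10 in neuron knockout.

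In subicular or cortical nuclei, none of 60 members was past the fold in total knockout, 4 of 57 were in astrocyte knockout and 4 of 58 in neuron knockout, against 5.28%, 3.85% and 4.44% of all genes. Robo3, at 5.17, 7.13, 9.75 and 10.4 CPM, was higher by 0.91 (95% interval 0.49 to 1.34) in astrocyte knockout and 1.002 (95% interval 0.63 to 1.40) in neuron knockout. It came mostly from the largest cluster, where it lay at 12.3, 18.2, 23.8 and 22.5 CPM. That cluster made up 30.9%, 32.1%, 36.9% and 41.4% of the class. Sema3c, at 18.1, 26.1, 11.3 and 11.8 CPM, was lower by -0.67 (95% interval -0.997 to -0.37) and -0.62 (95% interval -0.89 to -0.35) in the same libraries. Its ratio in astrocyte knockout turned to 0.15 among male nuclei, from 92 UMIs against 118 in wild type. In the largest cluster it was 0.04, but from 2 UMIs against 3, so no direction can be read there. In the next cluster, from 93 UMIs against 279, the Sema3c ratio was -0.58. Unc5d, at 987, 719, 647 and 847 CPM, was lower in astrocyte knockout by -0.61 (95% interval -0.65 to -0.57), opposite to its ratios in granule and CA1 nuclei of that library. The ratio was -0.50 in the largest cluster and -0.08 in the next, both short of the fold. In the cluster with Rorb among its leading genes, which held more Unc5d than either and is described at the end, Unc5d was lower past the fold. That cluster made up 24.7%, 17.1%, 17.2% and 14.4% of the class. The part of the cluster shares in the Unc5d ratio was not tested. Ephb3 in astrocyte knockout (-0.78) and Plxna3 (0.66) and Ntn4 (0.60) in neuron knockout completed the calls. With gated nuclei, Ephb3 was at -0.52 and Unc5d at -0.56 in astrocyte knockout, both short of the fold, as were Robo3 (0.58), Plxna3 (0.51) and Ntn4 (0.58) in neuron knockout.

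MGE-type interneurons had 2 of 45 members past the fold in total knockout, 1 of 42 in astrocyte knockout and 4 of 43 in neuron knockout, against 5.31%, 4.27% and 4.99% of all genes. Plxna3, an A-type plexin encoded on the X chromosome, lay at 3.70, 10.4, 7.75 and 8.65 CPM, from 24, 111, 47 and 67 UMIs, and was higher in total knockout by 1.44 (95% interval 0.84 to 2.19). It was above wild type in every knockout library and in both the Sst cluster (5.65, 13.9, 10.9 and 12.3) and the Pvalb cluster (1.82, 6.71, 4.60 and 4.42), and among male nuclei alone the ratio in total knockout was 0.96. Sema6c, at 15.3, 23.8, 19.8 and 24.1 CPM, was higher by 0.63 (95% interval 0.30 to 0.99) in total knockout and 0.65 (95% interval 0.30 to 1.03) in neuron knockout. Efnb3, at 10.5, 8.62, 6.43 and 5.29 CPM, was lower by -0.69 (95% interval -1.31 to -0.12) in astrocyte knockout and -0.97 (95% interval -1.58 to -0.41) in neuron knockout. Among male nuclei the first of these turned to 0.29, from 21 UMIs against 15 in wild type. Nrp1, at 32.4, 37.8, 44.8 and 50.99 CPM, was higher in neuron knockout by 0.65 (95% interval 0.41 to 0.90), nearly all of it in the Pvalb cluster, at 41.8, 48.9, 60.1 and 81.6 CPM. In the Sst cluster Nrp1 lay at 22.6, 27.1, 29.5 and 24.2 CPM. Unc5a in neuron knockout (0.67) was the remaining call. With gated nuclei, Efnb3 was at -0.23 in astrocyte and -0.51 in neuron knockout, Nrp1 at 0.50 in neuron knockout and Sema6c at 0.48 in total knockout, all short of the fold.

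CGE-type interneurons had 1 of 38 members past the fold in total knockout, 3 of 32 in astrocyte knockout and 2 of 34 in neuron knockout, against 4.78%, 6.32% and 6.79% of all genes. Sema5b lay at 80.9, 94.8, 48.5 and 47.6 CPM, with log2 ratios of -0.73 (95% interval -1.07 to -0.42) in astrocyte and -0.76 (95% interval -1.05 to -0.48) in neuron knockout. Within the Vip cluster it lay at 185, 203, 184 and 183, with ratios of -0.002 and -0.01. The Vip cluster held 54.9%, 58.6%, 36.2% and 30.9% of the class, and in the other cluster the ratios were -0.51 and 0.33. The part of the cluster shares in the ratios of the class was not tested. Sema6a, at 189, 155, 117 and 113 CPM, was lower by -0.70 (95% interval -0.91 to -0.49) in astrocyte and -0.74 (95% interval -0.92 to -0.56) in neuron knockout, with 288, 255, 230.03 and 259 CPM in the Vip cluster and 122, 78.6, 81.7 and 75.8 in the other. Epha3, at 380.2, 369.9, 647 and 439 CPM, was higher in astrocyte knockout by 0.77 (95% interval 0.66 to 0.88), and lay at 436, 389, 734 and 474 in the larger cluster and 299, 346, 365 and 302 in the Vip cluster. Slit2 in total knockout (0.87) was the last call, from a level of 8.26 to 15.6 CPM. Its ratio was 2.23 with doublets kept, 1.86 under the gate and 0.21, short of the fold, in the larger cluster. In the Vip cluster it lay at 15.4 CPM in total knockout, from 34 UMIs, against 0.849 in wild type, from 1 UMI (exact 95% interval 0.0215 to 4.73). With gated nuclei, Sema6a was at -0.33 in astrocyte and -0.55 in neuron knockout, both short of the fold, while Sema5b was at -1.06 and -0.95.

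**Figure D5:**
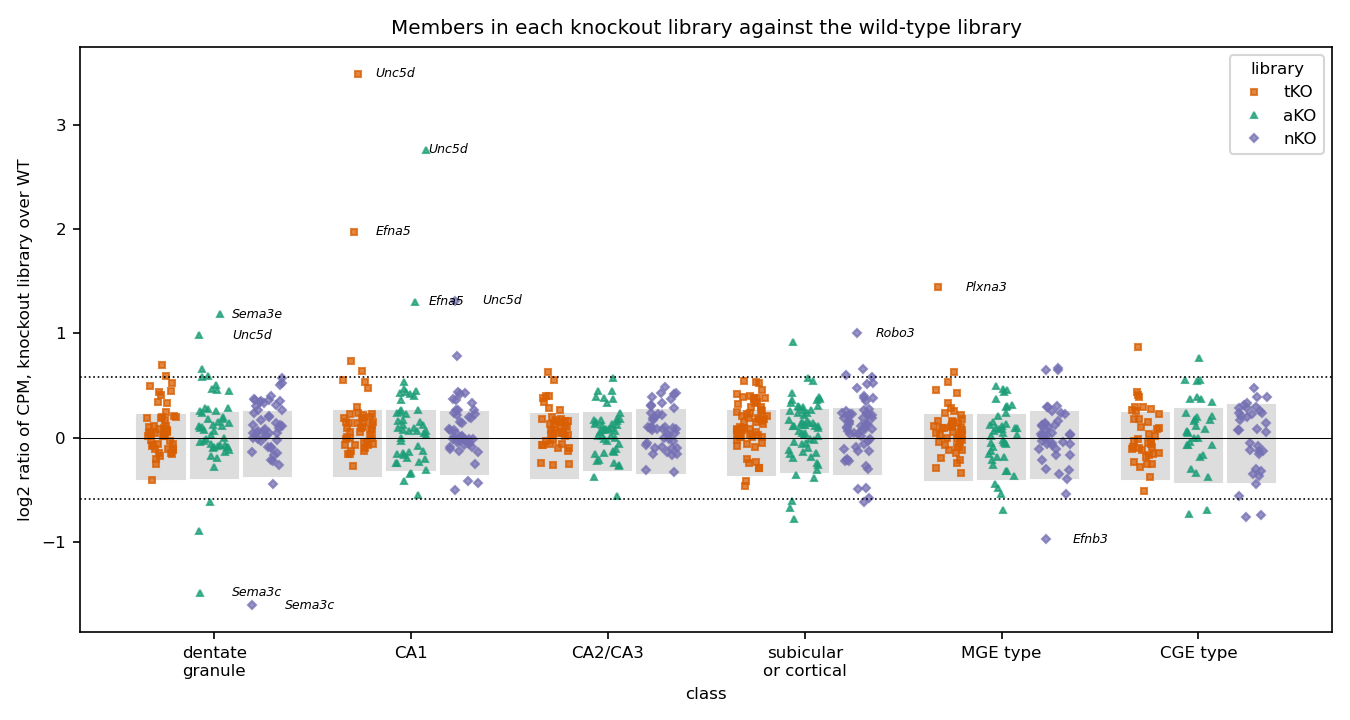
Log2 ratio of CPM of each tested member in each knockout library (tKO, total; aKO, astrocyte; nKO, neuron) over wild type, by class; grey boxes span the middle 80% of all genes tested and dotted lines mark 1.5-fold either way. Most members lie inside the lines, and the farthest above in total and astrocyte knockout are Unc5d and Efna5 in CA1, and in neuron knockout Unc5d in CA1 and Robo3 in subicular or cortical nuclei.

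Of the 40 ratios past the fold, 36 kept their sign among male nuclei and in each of the 2 largest clusters of their class, and the exceptions were Efnb3, Sema3a and Sema3c (in subicular or cortical nuclei) in astrocyte knockout and Sema5b in neuron knockout. They were past the fold in both of those clusters in 8 of 40: Unc5d and Efna5 in CA1 (2 libraries each), Unc5d, Sema3e and Slit2 in granule nuclei of astrocyte knockout, and Sema6c in MGE-type interneurons of neuron knockout. Male nuclei and these clusters are parts of the nuclei that gave the 40 ratios, so a kept sign is partly fixed in advance and is no replication. The shares of all genes are not set beside these counts. Sex and genotype cannot be told apart in the total-knockout library other than through the male nuclei of the other libraries.

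The rest of the pathway was represented by 45 further genes (co-ligands such as the netrin-Gs, other receptors and cytoplasmic effectors such as the collapsin response mediators). Of these, 5 of 236 comparisons were past the fold in total knockout (2.12% against 5.19% of all genes), 3 higher and 2 lower. Astrocyte knockout had 3 of 233 (1.29% against 4.1%), 2 higher and 1 lower, and neuron knockout 4 of 234 (1.71% against 4.75%), 3 higher and 1 lower. Their difference from the members was not tested. None was past the fold in the same direction in all 3 knockout libraries. Between classes, 5 of 42 of these genes lay higher in granule nuclei and 8 in CA1, 5 of 41 higher in CA1 and 2 in CA2/CA3, 5 of 42 higher in granule nuclei and 7 in CA2/CA3, and 1 of 41 higher in the MGE type and 2 in the CGE type, read against the shares of all genes given above.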

How the data were processed

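Single-nucleus RNA of mouse hippocampus was measured in 4 libraries, 1 per genotype. The deposited files hold UMI counts per gene and barcode with no normalization. Cell Ranger ARC 2.0.0 and the build mm10 are named in the submitters' processing notes, without their roles, and the use of strand is not stated there. Chromatin data of the same nuclei were not analysed here.

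Libraries were joined on 20211 gene symbols listed in all 4, which held at least 99.977% of each library's UMIs. Nuclei with at least 500 genes and at most 5% mitochondrial UMIs were kept, and doublets were removed with Scrublet in scanpy 1.11.5 at 0.8% per 1000 barcodes. A Leiden graph (2000 variable genes, 30 components, 15 neighbours, resolution 1; leidenalg 0.10.2, scikit-learn 1.9.0) was built without the members, sex genes, mitochondrial genes and Mgll. A cluster needed at least 3 markers for a name, each in at least 10% of its nuclei and 2-fold above the rest. Some clusters with enough markers were still left unnamed. Either their top genes pointed more to a different cell type, or they also carried marker genes from a different lineage. UMIs summed per library and class were scaled to CPM, with exact 95% Poisson intervals, and ratios carry exact conditional binomial intervals, all for counting error only. Shares of nuclei carry exact 95% binomial intervals, which cover the draw of nuclei within a library only. Every ratio is relative to the class total. The calls between classes and against wild type, the ratio interval and the TMM scaling were run on simulated Poisson counts. These counts held no variation between animals. Filtering, doublet removal, clustering, naming and gating were not tested in this way.

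The total UMIs per library were 89884297, 193307038, 89875862 and 81623644 in the order wild type, total, astrocyte and neuron knockout. Values are given for up to 6 members per direction with the widest gap in a class pair, up to 4 per direction in a class and knockout library, and a list of ligand and receptor partners whatever their values. The members and all lists were chosen with earlier results of these data known. Pairs of classes needed 50 nuclei in each library, so oligodendrocytes and their precursors were not compared. Alternatives changed the fold, the minimum of UMIs, the pseudocount, the scaling, doublets, sex, depth, the clusters and the gating of nuclei, and left out each library in turn.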

Additional observations from a re-analysis of the deposited data

Results flagged for a closer look

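Unc5d, a netrin receptor, pointed in opposite directions in different classes of the astrocyte-knockout library. Its log2 ratio to wild type was 2.76 in CA1 and -0.61 in subicular or cortical nuclei, a difference of 3.37. It was 0.98 in granule nuclei, which differed from the subicular or cortical value by 1.59. With 1 library per genotype neither difference was tested. Gating each nucleus on its own markers selected partly other nuclei. There the CA1 value turned to -0.62, the granule value was 0.47 and the subicular or cortical value -0.56, the last 2 short of the fold of 1.5. The subicular or cortical value was -0.50 in the largest cluster of that class. In the cluster with Rorb among its leading genes Unc5d was also below wild type.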

How the results depend on the processing

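No paired analysis was possible because there is 1 library per genotype and the labels carry no replicate numbers. With 1 library left out in turn, members separated between classes numbered 8 to 9 for granule above CA1, 8 to 9 for CA1 above granule, 3 for CA1 above CA2/CA3, 11 to 12 for the reverse, 6 for granule above CA2/CA3, 12 to 14 for the reverse, 7 to 8 for MGE above CGE type and 6 to 8 for the reverse. With fewer libraries the gap of any gene can only widen or stay. The shares of all genes are not set beside these counts, which therefore do not compare members with all genes. A 1.5-fold gap gave 13 of 56 for granule above CA1 (9.61% of all genes), 15 for the reverse (8.66%) and 6 for CA1 above CA2/CA3 (5.31%). With nuclei gated one by one, 4 of 61 members lay higher in granule than in CA1 nuclei (4.66% of all genes) and 7 higher in CA1 than in CA2/CA3 (3.93%), and Unc5d turned to 0.20 (log2 CA1 over CA2/CA3). Of the 63 separations, 58 held under TMM scaling of the classes, 59 with members kept in the clustering and 46 under the gate.

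For the comparisons with wild type, given in the order total, astrocyte and neuron knockout, a 2-fold limit left 3 of 278, 4 of 269 and 3 of 271 past it, against 0.903%, 0.451% and 0.574% of all genes. A minimum of 20 UMIs gave 26 of 331, 34 of 329 and 27 of 327, against 11.8%, 10.1% and 10.8%. Total knockout gave 25 of 293 with doublets kept (6.38% of all genes), 20 of 262 among male nuclei (5.77%), 6 of 163 after thinning to 1000 UMIs (4.3%) and 19 of 234 in the largest cluster alone (4.69%). Neuron knockout gave 3 of 136 after thinning (4.01%) and 8 of 225 in the largest cluster (4.88%). Of the 40 ratios, counted in either direction, 33 were past the fold with doublets kept, 22 among male nuclei, 18 in the largest cluster, 14 under the gate and 12 after thinning, where fewer members reach 100 UMIs. The 33 include Unc5d in CA1 of neuron knockout (-0.80) and the 14 Unc5d in CA1 of astrocyte knockout (-0.62), both past it in the opposite direction. The second largest cluster alone, an alternative chosen after seeing the data, kept 13. Only Sema6c in MGE-type interneurons of neuron knockout was past the fold with doublets kept, among males, in both clusters and under the gate. After thinning its ratio was -0.30, from 10 UMIs against 10 in wild type, too few to read a direction. Other reversed log2 ratios were as follows. Under the gate, Unc5d in CA1 was -0.62 in astrocyte and -0.30 in neuron knockout, Efna5 in CA1 was -0.0773 in astrocyte knockout, and Sema3a in granule nuclei of astrocyte knockout was -0.35. Thinning gave Sema3a there -0.19, from 14 UMIs against 15 in wild type. It gave Unc5a in MGE-type interneurons of neuron knockout -1.10 (3 UMIs against 6) and Plxnb2 in CA1 of total knockout -0.0681 (13 against 6). These thinned counts are below the minimum of 100 UMIs, so no direction can be read from them. Among male nuclei of astrocyte knockout, Sema3a in granule nuclei was -0.17, from 20 UMIs against 32 in wild type. Efnb3 in MGE-type interneurons was 0.29 (21 UMIs against 15) and Sema3c in subicular or cortical nuclei 0.15 (92 against 118). Kept doublets gave Unc5d -0.80 and Efna5 -0.17 in CA1 of neuron knockout. In the largest cluster, Sema3c of subicular or cortical nuclei was 0.0442 in astrocyte knockout, from 2 UMIs against 3 in wild type. Sema5b of the CGE type was 0.33 there in neuron knockout, from 40 UMIs against 17. The cause of these turns was not tested. Depth limits members under 100 UMIs, and with 1 library per genotype the spread between animals is unknown.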

Other observations

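Cajal-Retzius nuclei, early-born neurons that secrete reelin, had at least 100 nuclei in total knockout only, with 44 in wild type and 2 or 3 in the remaining libraries. They held the receptor Robo2 at 5269 CPM in wild type and 5116 in total knockout, above the 933 to 1057 of granule nuclei. Epha3, a receptor of A-type ephrins, lay in them at 1145 and 947 CPM. Unc5b lay at 179 and 159 CPM, from 22 and 55 UMIs.

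Ntn4 was also uneven within the MGE type, at 60.3, 48.9, 43.3 and 46.2 CPM in the Pvalb cluster and 19.5, 21.1, 13.9 and 20.8 in the Sst cluster. Within the granule class Sema3a and Sema3e were higher in the cluster with C1ql2, where Sema3a lay at 12.4, 6.97, 15.6 and 7.71 CPM against 1.82, 2.78, 2.70 and 3.15 in the other and Sema3e at 33.9, 20.04, 62.2 and 29.9 against 9.01, 10.01, 20.9 and 15.4. Unc5d was split in the subicular or cortical class, at 1912, 1323, 1222 and 1653 CPM in the cluster with Rorb among its leading genes and 144, 199.98, 136 and 154 in the cluster led by Ccn2. Sema3c showed the reverse, at 52.2, 58.8, 34.8 and 36.3 CPM in the Ccn2 cluster and 7.54, 17.7, 8.05 and 8.64 in the Rorb cluster.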
